A study of Homo sapiens with 4 samples.

Results

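Zinc finger genes of chromosome 19 were examined in T24 cells, a human bladder carcinoma line, by RNAseq. The members are the gene IDs listed on chromosome 19 under a symbol made of ZNF and a number. There are 248 such IDs among the 57879 genes listed, and 5 symbols appear under 2 IDs, so the members carry 243 symbols. One group of cells (control in the labels, EV here) carried an empty vector, and the other (TET1CD in the labels, TET1-CD here) expressed the catalytic domain of TET1, cloned into a FLAG-tagged pCDH plasmid. Each group had 2 libraries. Per the study's methods, cells were infected with lentivirus and kept in puromycin, so both groups are selected populations of the same line. The enzymatically inactive mutant of the domain was not among these libraries. The labels do not say that libraries of a group came from separate cultures, so p-values measure the spread between libraries, which may be technical.

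TET1 oxidises 5-methylcytosine at CpG dinucleotides, which is a step towards the removal of DNA methylation. Chromosome 19 carries the densest clusters of C2H2 zinc finger genes in the human genome, which arose by repeated tandem duplication. Most of their products carry a KRAB domain, which binds the corepressor TRIM28 (KAP1). TRIM28 recruits the histone H3K9 methyltransferase SETDB1 and heterochromatin proteins, and many KRAB zinc finger proteins silence transposable elements in this way. The gene clusters themselves carry H3K9 methylation in many cell types. Several of the genes, mostly on 19q, are known from the literature for methylated promoters in tumours.

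The estimated counts, which are the fragments that the authors assigned to the transcripts of a gene, summed to between 17442143 and 20295266 per library, and the groups overlapped in depth. TET1 had 111 and 83 estimated counts with EV and 2939 and 3310 with TET1-CD, a log2 fold change of 5.02 (SE 0.08, adjusted p = 4.9e-10, edgeR's quasi-likelihood test). Of 12 urothelial markers, 6 passed the filter on low counts, and 3 were higher in TET1-CD cells, namely GATA3 (log2 fold change 1.25, adjusted p = 0.0163), KRT7 (0.34, adjusted p = 0.00175) and KRT18 (0.18, adjusted p = 0.0414). KRT7 had between 15981 and 22638 counts. The other tested ones, EPCAM (0.54, adjusted p = 0.107), PPARG (0.10, adjusted p = 0.465) and KRT8 (-0.08, adjusted p = 0.338), were not called by edgeR. The markers UPK1A, UPK1B, UPK3A, KRT5 and KRT20 had 3 counts or fewer in every library. Of 3 mesenchymal genes, VIM had between 43958 and 63997 counts and was lower in TET1-CD cells (-0.39, adjusted p = 0.00232). ZEB1 (0.09, adjusted p = 0.486) and CDH2 (-0.04, adjusted p = 0.673) were not called. The part of these marker differences in the values of the ZNF genes was not tested. Of the 6 markers of blood, endothelial and muscle cells that the files list, 3 stayed at 3 counts or fewer in every library and 2 were tested, of which 0 were called by edgeR (1, CD68, had an unadjusted p under 0.05, with 411 to 577 counts). PTPRC and DES, markers of leukocytes and muscle, reached at most 2 and 1 counts. The endothelial marker CDH5 had 9 and 10 counts with EV and 13 and 22 with TET1-CD (log2 fold change 0.88, adjusted p = 0.221, edgeR). VWF had 3 and 6 counts with EV and 2 and 0 with TET1-CD.

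The ZNF genes were expressed at low levels in both groups. They took between 0.176% and 0.184% of the counts of a library. Of the 248 genes, 213 had enough counts for a test, and 35 did not. Among the latter, 24 had 3 counts or fewer in every library, and 11 exceeded 3 counts in at least 1 library but reached no more than 10. ZNF723, ZNF677, ZNF667, ZNF471 and ZNF135 were at 0 in all 4 libraries. A count of 0 allows up to 3 counts per library, which covers counting error only. No member had 3 counts or fewer in both libraries of one group and more than 10 in both of the other. The filter was met in both libraries of each group by 202 of the 213 genes tested. Over the 213 genes, the median of the mean estimated count was 111, against 458.8 over all genes tested. On the FPKM scale, which is corrected for length, the median level was 2.16 for the members and 9.64 for all genes.

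Few of these genes were called as different between TET1-CD and EV cells. Of the 213 ZNF genes tested, 3 were higher and 5 were lower in TET1-CD than in EV cells at an adjusted p under 0.05 (edgeR's quasi-likelihood test, Benjamini-Hochberg over all genes). That is 3.76% of the members, whereas 19.7% of all 14573 genes tested were called (10.0% higher and 9.61% lower). With a fold change of at least 2 as well, which defines a DEG, 1 member was higher and 2 were lower (1.41%), beside 3.77% of all genes (2.72% higher and 1.04% lower). Without adjustment, 10 members were higher and 20 lower at a p under 0.05, and 33.2% of all genes had such a p. Libraries of the groups did not overlap for 37 members that were higher and 59 that were lower in TET1-CD cells, or 45.1%, and for 61.0% of all genes (30.8% higher and 30.2% lower). The difference between these shares was not tested. In bulk RNA, fewer cells that express a gene and less RNA per cell cannot be told apart.

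The median log2 fold change was -0.04 over the members and 0.001 over all genes tested. Of the members, 119 lay below 0 and 94 above it. The quartiles were -0.18 and 0.12, and 191 of 213 lay within 0.5 of 0. The SD of the log2 fold changes was 0.35 over the members and 0.63 over all genes. For 189 members, the 95% confidence interval of the change lay inside a 2-fold change in either direction (88.7%, and 81.5% over all genes), and for 119 inside a 1.5-fold change. The plot in positional order shows that the called genes were scattered along the long arm.

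**Figure D1:**
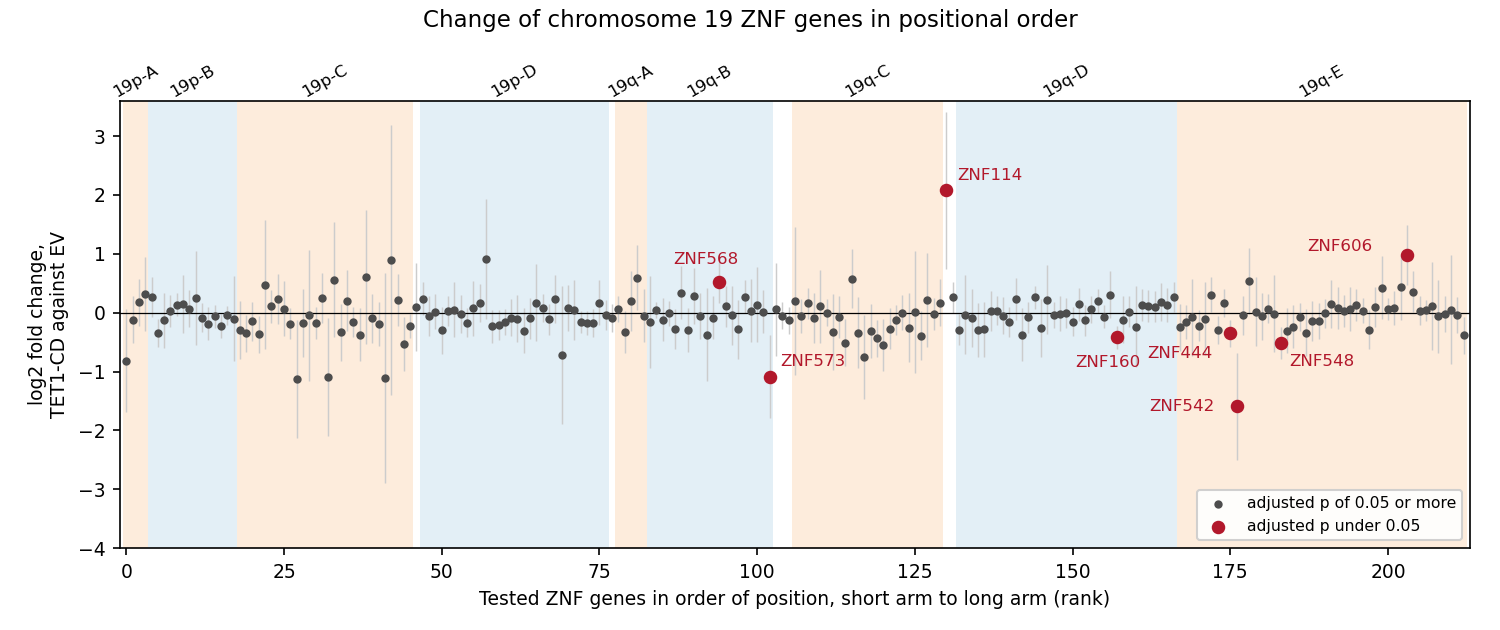
The log2 fold change of TET1-CD against EV is plotted for the 213 ZNF genes tested, in order of position along chromosome 19. Grey lines are 95% confidence intervals, shaded blocks are clusters, and red points are the 8 genes with an adjusted p under 0.05, all on 19q.

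Summed over the members, CPM, the count scaled to a library size adjusted by TMM, was 1844.4 and 1795.5 with EV and 1758.6 and 1779.6 with TET1-CD. On this scale, both TET1-CD libraries were below both EV libraries. As shares of all counts, without TMM, the members took 0.184% and 0.178% with EV and 0.176% and 0.179% with TET1-CD. Those shares overlapped between the groups. The means were 1819.9 ± 34.6 and 1769.1 ± 14.9 (SD, n = 2), a difference of -2.79%. With 2 libraries against 2, an exact two-sided permutation test cannot give a p under 0.333, so sums are given without a test. Replicates also differed from each other. The median log2 difference of the members was -0.05 within EV and 0.02 within TET1-CD, and it was between -0.06 and -0.01 for the 4 pairs across groups.

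Promoter sequences of 5 members are shown here for their CpG content, as CpG sites are the substrate of DNA methylation. ZNF606 rose, ZNF160 and ZNF573 fell, and ZNF135 and ZNF677 were at 0 throughout. Each sequence runs from 250 bases before to 50 bases after the start given by RefSeq, 5′ to 3′ on the strand of the gene, with CpG sites in capitals. On GRCh37, ZNF606 lies at chr19:58514139-58514438 on the minus strand, ZNF160 at chr19:53606626-53606925 on the minus strand, ZNF135 at chr19:58570357-58570656 on the plus strand and ZNF677 at chr19:53758077-53758376 on the minus strand. The ZNF573 sequence is given on GRCh38.p14, at chr19:37779537-37779836 on the minus strand. It did not pass the rule that matched promoters to the listed 5′ ends, so it may not be the promoter of the transcripts counted.
ZNF606: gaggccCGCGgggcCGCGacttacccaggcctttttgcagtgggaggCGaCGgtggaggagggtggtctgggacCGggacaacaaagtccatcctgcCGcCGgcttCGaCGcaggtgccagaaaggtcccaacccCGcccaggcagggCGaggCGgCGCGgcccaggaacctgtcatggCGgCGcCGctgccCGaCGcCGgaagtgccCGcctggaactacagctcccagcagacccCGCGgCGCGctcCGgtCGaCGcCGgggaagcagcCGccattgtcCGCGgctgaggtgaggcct
ZNF160: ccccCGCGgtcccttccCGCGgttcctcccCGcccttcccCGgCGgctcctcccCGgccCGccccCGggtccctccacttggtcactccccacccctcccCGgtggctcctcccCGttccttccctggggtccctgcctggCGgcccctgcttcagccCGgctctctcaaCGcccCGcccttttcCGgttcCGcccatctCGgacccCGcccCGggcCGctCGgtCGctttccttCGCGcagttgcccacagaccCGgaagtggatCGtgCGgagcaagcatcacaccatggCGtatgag
ZNF573: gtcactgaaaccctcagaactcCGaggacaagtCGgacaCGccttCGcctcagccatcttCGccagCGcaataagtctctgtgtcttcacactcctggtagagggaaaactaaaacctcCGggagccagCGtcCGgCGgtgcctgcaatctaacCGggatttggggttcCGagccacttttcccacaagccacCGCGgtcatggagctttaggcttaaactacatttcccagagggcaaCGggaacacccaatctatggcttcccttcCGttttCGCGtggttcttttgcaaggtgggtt
ZNF135: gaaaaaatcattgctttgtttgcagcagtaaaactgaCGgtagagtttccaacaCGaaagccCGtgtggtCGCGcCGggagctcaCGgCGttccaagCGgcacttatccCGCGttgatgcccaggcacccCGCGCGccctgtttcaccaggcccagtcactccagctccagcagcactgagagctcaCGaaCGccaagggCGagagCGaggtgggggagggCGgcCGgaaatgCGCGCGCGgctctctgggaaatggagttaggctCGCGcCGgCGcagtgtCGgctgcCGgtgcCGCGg
ZNF677: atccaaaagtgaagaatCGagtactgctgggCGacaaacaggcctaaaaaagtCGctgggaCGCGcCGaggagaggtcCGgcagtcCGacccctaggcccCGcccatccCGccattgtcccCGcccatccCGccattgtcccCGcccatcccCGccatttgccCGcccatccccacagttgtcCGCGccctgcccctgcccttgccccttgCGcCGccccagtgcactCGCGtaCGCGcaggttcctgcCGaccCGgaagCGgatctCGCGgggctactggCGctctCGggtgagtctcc

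The promoters of ZNF606 and ZNF160 hold 34 and 30 CpG sites, and the ZNF573 sequence, which was not matched to its listed 5′ end, holds 18. Those of the unexpressed ZNF135 and ZNF677 hold 32 and 30. High CpG content was thus found in a promoter of a gene that rose, of a gene that fell and of genes with no counts. For 192 members, a promoter matched GRCh37 once and lay within a set distance of the listed 5′ end. Their median was 20 CpG sites in 300 bases, against 14 over 27305 promoters. The ratio of observed to expected CpG was at least 0.6 for 78.6% of these members and 49% of the 27305 promoters. Those promoters did not cover every chromosome. They were the first listed of each gene, whereas members used the one nearest to the listed 5′ end. Among the 24 members with 3 counts or fewer in every library, 15 had a promoter sequence, with a median of 21 sites, and the other members had a median of 20. Across the 168 tested members with a sequence, the number of sites and the log2 fold change had a Pearson's r of -0.06 and a Spearman's rho of -0.01. This is a description across genes, which share libraries and base composition. Methylation of these promoters was not measured in these libraries.

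Among the 3 members that rose, the largest change was that of ZNF114, a KRAB zinc finger gene that lies outside the clusters, at chr19:48675575-48790865 (GRCh37, plus strand). It had 5 and 2 estimated counts with EV and 13 and 17 with TET1-CD. The groups did not overlap, but all 4 values were low. After normalization, the counts were 3.39 ± 1.74 and 15.0 ± 1.67 (SD, n = 2), a log2 fold change of 2.08 (SE 0.60, adjusted p = 0.0359, edgeR's quasi-likelihood test). Since EV replicate 2 was below the floor of 3 counts, this fold is poorly known. ZNF114 passed the filter on low counts through its TET1-CD libraries alone, the group in which it is high, so its p is no support for the rise. With filters that require 10 counts in every library or a mean of 10 counts it was not tested, and 0 members were higher DEGs. CARD8, on the opposite strand, lies within the span of ZNF114 and had over 200 counts in every library. Whether the counting used strand is not given in the sources used here. On the same strand, C19orf68 (57 and 33 counts with EV, 32 and 54 with TET1-CD) also overlaps ZNF114. So does CTC-241F20.3, with 62 and 82 counts with EV and 70 and 70 with TET1-CD.

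ZNF606, another KRAB gene, lies at chr19:58488421-58514717 on the minus strand. It had 38 and 41 counts with EV and 65 and 90 with TET1-CD. Normalised counts were 39.7 ± 6.49 and 77.5 ± 11.7 (SD, n = 2). The log2 fold change was 0.98 (SE 0.23, adjusted p = 0.0157, edgeR), just under the 2-fold limit for a DEG. An antisense RNA, CTD-2368P22.1 (chr19:58513429-58522600, plus strand), named after its values were seen, overlaps the 5′ end of ZNF606. It had 4 and 9 counts with EV and 24 and 29 with TET1-CD (log2 fold change 2.01, adjusted p = 0.0174, edgeR). This RNA passed the filter on low counts through its TET1-CD libraries alone, so its p is no support for a rise. Without strand, fragments of the overlap cannot be told apart between the pair. ZNF568, at chr19:37407231-37489602 on the plus strand, is the human counterpart of a mouse gene needed in early development. Its counts were 84 and 71 with EV and 104 and 115 with TET1-CD. Normalised, they were 77.1 ± 0.634 and 110.1 ± 0.811 (SD, n = 2), and the log2 fold change was 0.51 (SE 0.16, adjusted p = 0.0471, edgeR). ZNF568 shared 23.6% of the 31-base words of its transcripts with other genes, the highest share among the called members, so its fragments may be split between relatives.

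The other 5 called members fell. The largest fall was that of ZNF542, listed at chr19:56879468-56891197 on the plus strand, which GENCODE annotates as a pseudogene, and it overlaps the low gene ZNF582 on the opposite strand. It had 29 and 32 counts with EV and 7 and 13 with TET1-CD. The groups were well apart, with normalised counts of 30.7 ± 5.50 and 9.92 ± 3.49 (SD, n = 2) and a log2 fold change of -1.59 (SE 0.41, adjusted p = 0.0227, edgeR). ZNF573, a KRAB gene at chr19:38226734-38307940 on the minus strand, had 38 and 35 counts with EV and 15 and 19 with TET1-CD. Its log2 fold change was -1.09 (SE 0.32, adjusted p = 0.0389, edgeR). ZNF542 and ZNF573 were the members counted as lower DEGs. ZNF542 was above the filter in both EV libraries but in 1 TET1-CD library, and with 10 counts required in every library it was not tested. With the most abundant transcript alone, the log2 fold change of ZNF542 was -0.454 (adjusted p = 0.659) and that of ZNF573 -4.698 (adjusted p = 0.0491). By the ratio of mean FPKM, ZNF573 had -0.557, which is under 2-fold.

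The other 3 falls were smaller and concerned better covered genes. ZNF548, at chr19:57901218-57912786 on the plus strand, had 243 and 196 counts with EV and 137 and 168 with TET1-CD, a log2 fold change of -0.51 (SE 0.12, adjusted p = 0.0166, edgeR). ZNF160, at chr19:53569859-53606689 on the minus strand, had 585 and 515 counts with EV and 362 and 453 with TET1-CD. Normalised counts of this KRAB gene were 547.8 ± 11.3 and 408.4 ± 32.7 (SD, n = 2). Its log2 fold change was -0.42 (SE 0.09), and its adjusted p of 0.0102 was the smallest of the members in edgeR's test. ZNF444, at chr19:56643968-56672262 on the plus strand, encodes a protein with a SCAN domain in place of KRAB. It had 327 and 295 counts with EV and 222 and 262 with TET1-CD, a log2 fold change of -0.35 (SE 0.10, adjusted p = 0.0389, edgeR). In each of these genes the higher TET1-CD library remained below the lower EV library after normalization.

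**Figure D2:**
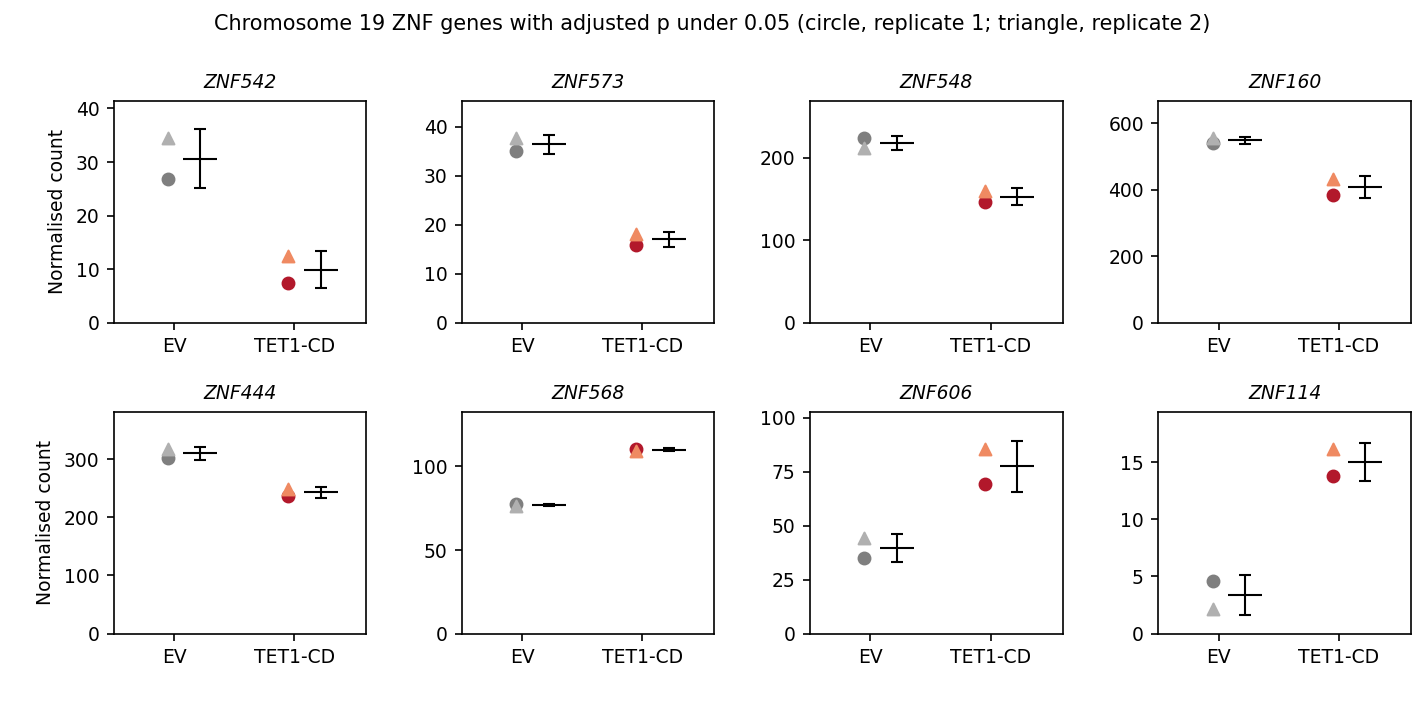
Normalised counts of the 8 called ZNF genes are plotted for each library, with circles for replicate 1 and triangles for replicate 2, beside the mean and SD of each group. In ZNF542, ZNF573, ZNF548, ZNF160 and ZNF444 both TET1-CD libraries lie below both EV libraries, and in ZNF568, ZNF606 and ZNF114 both lie above.

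These calls depended on the libraries and the tool. DESeq2, the tool of the study's methods, called ZNF160 alone among the members (adjusted p = 0.0269) and 11.9% of all genes, and gave 7 members an unadjusted p under 0.05, 2 of them higher. Without TET1-CD replicate 1, 2 members were called, of which 0 were among the 8, and without TET1-CD replicate 2, 2 were called, of which 1 was among them. Without EV replicate 1 or 2, 11 and 10 were called, of which 5 and 3 were among them. Such a fit has 1 library in one arm, and takes the spread from the other group and from other genes, so the lone library is assumed to vary like the other group. With the most abundant transcript alone, ZNF606 had a log2 fold change of 0.345, ZNF114 of 3.698, ZNF444 of -0.172 and ZNF548 of -0.82, and of these 4 none was called. By the ratio of mean FPKM, the values were 1.231, 1.33, -0.654 and -0.314.

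By position, the members fell into 9 clusters, defined as runs of at least 3 members with gaps of no more than 1 Mb. On 19p, 0 of 77 members tested were called, and the median log2 fold change was -0.08. On 19q, 8 of 136 were called (5.88%), and the median was -0.02. Without adjustment, 8 members on 19p had a p under 0.05, all lower in TET1-CD cells, and on 19q 10 were higher and 12 lower. Over all genes, 19.7% were called and 33.2% had an unadjusted p under 0.05. The difference between the arms was not tested.

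The cluster of ZNF440, ZNF700 and their neighbours on 19p, from 11594242 to 12750912 on GRCh37 (19p-C in the plot of cluster sums), had a median log2 fold change of -0.16 over 28 tested of 29 members. Its summed CPM was 164.8 and 162.6 with EV and 147.2 and 151.0 with TET1-CD. The means were 163.7 ± 1.58 and 149.1 ± 2.70 (SD, n = 2), a difference of -8.9%, and the groups did not overlap. Of its members, 18 lay below 0, and 11 were lower and 2 higher without overlap, but none passed the adjusted test. Over all genes, 30.2% were lower and 30.8% higher without overlap, 61.0% in all. The 7 other genes tested within its span had a median of -0.004. The median of this cluster was between -0.19 and -0.09 when each library was left out, with the latter value without TET1-CD replicate 1. It was -0.053 by the ratio of mean FPKM, where 19q-C was lower at -0.102, and -0.064 with the most abundant transcript of each gene alone, where 19p-A (-0.136), 19q-B (-0.107) and 19p-B (-0.092) were lower. Its members also shared most sequence, with a median of 27.5% of the 31-base words of their transcripts found in another gene.

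On 19q, the cluster from 44029649 to 45579846 (19q-C) had a median of -0.08 over 24 tested members. Its summed CPM was 129.8 and 126.6 with EV and 118.8 and 118.9 with TET1-CD, again without overlap, a difference of -7.3%. The 22 other genes tested in its span had a median of 0.07. Values of 4 neighbouring genes of this cluster, chosen after they were seen, are given as a description. ZNF230 had 93 and 80 counts with EV and 57 and 63 with TET1-CD, with a log2 fold change of -0.51 (adjusted p = 0.0735, edgeR). ZNF224, a KRAB repressor first described for the aldolase A gene, had 163 and 137 against 110 and 109, and -0.44 (adjusted p = 0.0545). ZNF225 had 81 and 69 against 50 and 51, and -0.55 (adjusted p = 0.0776). ZNF222, which lies between ZNF230 and ZNF224, had 43 and 39 against 60 and 61, and 0.58 (adjusted p = 0.102). It shared 23.94% of its 31-base words with other genes. The span of a ZNF223 ID, 44529506 to 44591471, begins near the 5′ end of ZNF222, so fragments may be split between the IDs. ZNF223, whose summed IDs are given below, also lies between ZNF222 and ZNF224. None of these changes passed the adjusted test.

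The remaining clusters moved less. On 19p, the sum of 19p-A (2819872 to 2944969) differed by 0.3%, of 19p-B (7069455 to 9903856) by -3.6% and of 19p-D (19779605 to 24312654) by -4.6%. On 19q, those of 19q-A (35033367 to 35454953) and 19q-B (36673188 to 38307940) differed by 2.8% and 1.5%, and those of 19q-D (52074551 to 54083523) and 19q-E (55987699 to 58992597) by -0.4% and -2.2%. The largest cluster, 19q-E, with 46 of 59 members tested, held 1 rise and 3 falls, and its sum was 392.4 and 387.5 CPM with EV and 379.2 and 383.3 with TET1-CD. In 19q-D, where 35 of 39 members were tested, the libraries overlapped, at 362.3 and 366.2 CPM with EV and 355.6 and 369.9 with TET1-CD. With sizes adjusted by TMM, sums of the groups did not overlap in 19p-B, 19p-C, 19p-D, 19q-C and 19q-E, all lower in TET1-CD cells. The TMM factors were 0.9983 and 0.9934 with EV and 1.003 and 1.005 with TET1-CD. The smaller separations, in 19p-B, 19p-D and 19q-E, depend in part on these factors, and sums without them are not given here.

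**Figure D3:**
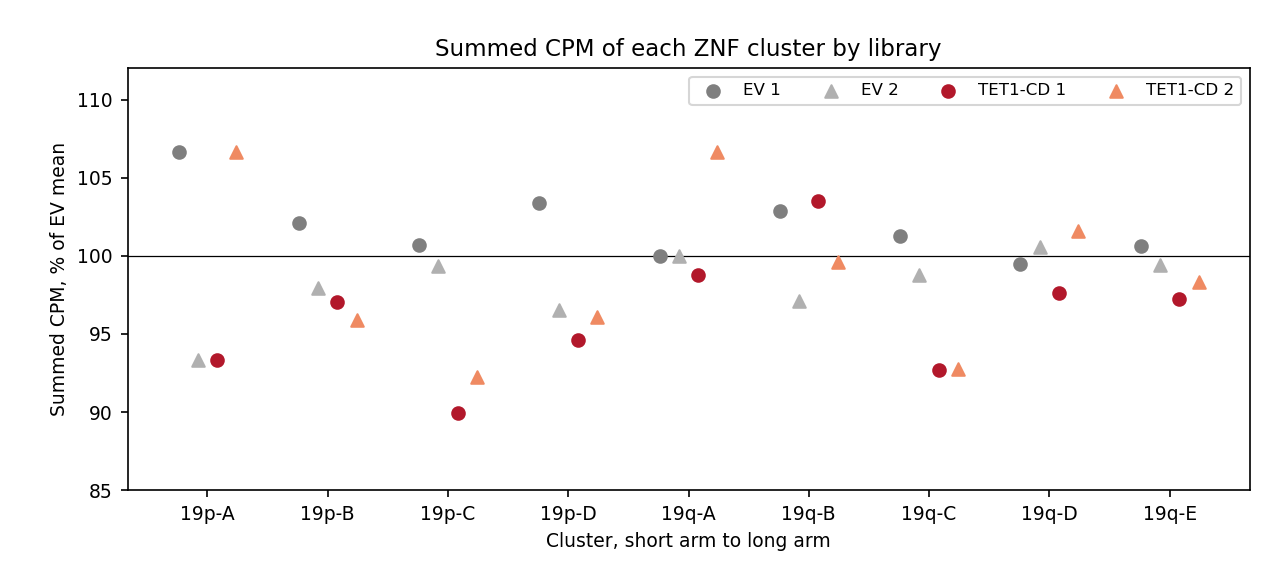
The summed CPM of each cluster is plotted for the 4 libraries as a percentage of the EV mean, with clusters in order from the short to the long arm. The largest differences of the means are those of 19p-C (-8.9%) and 19q-C (-7.3%), and the libraries of the groups overlap in 19p-A, 19q-A, 19q-B and 19q-D.

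The members of highest level, by mean FPKM, were not called. ZNF146, which encodes a protein made almost only of zinc fingers, had the highest mean FPKM, and its counts were 1573 and 1290 with EV and 1432 and 1493 with TET1-CD. The groups overlapped, and the log2 fold change was 0.05 (95% confidence interval -0.09 to 0.19, adjusted p = 0.626, edgeR). ZNF544 had a mean FPKM of 13.2, and counts of 608 and 539 with EV and 536 and 632 with TET1-CD. For ZNF121, with a mean FPKM of 12.8, the counts were 544 and 429 against 432 and 487. These genes had log2 fold changes of 0.04 and -0.06 (adjusted p = 0.783 and 0.655, edgeR). ZNF581 (mean FPKM 11.2) had 307 and 289 counts with EV and 231 and 252 with TET1-CD, with a log2 fold change of -0.29 (adjusted p = 0.0824). ZNF787 (mean FPKM 10.9) had 403 and 337 against 425 and 393, and 0.17 (adjusted p = 0.323).

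For 5 symbols, the counts of 2 IDs were also summed. The ZNF709 IDs, which overlap in position, had 66, 35, 45 and 0 counts and 0, 32, 6 and 56 counts in EV replicates 1 and 2 and TET1-CD replicates 1 and 2. Each ID alone varied between 0 and over 50 counts among the libraries, but the IDs together had 66, 67, 51 and 56. For ZNF788, one ID had 288, 154, 218 and 299 counts and the other 69, 132, 68 and 26, and their sums were 357, 286, 286 and 325. The log2 fold changes of the ZNF788 IDs were 0.25 and -1.09, and that of their sum was -0.06 (adjusted p = 0.734, edgeR). Summed, the ZNF223 IDs had 125 and 98 counts with EV and 59 and 90 with TET1-CD, and the log2 fold change of -0.57 did not pass the test (adjusted p = 0.0584). The IDs of ZNF763 summed to 21 and 24 against 11 and 8 counts, with -1.22 (adjusted p = 0.0786), and those of ZNF8 to 67 and 48 against 55 and 59, with 0.01 (adjusted p = 0.985). Summing thus left a difference of similar size in ZNF223 and ZNF763 and a small one in ZNF788 and ZNF8. Summing the IDs of each symbol left 8 of 209 members called, the same 8 genes.

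Among the genes known for promoter methylation in tumours, about as many were too low to test as could be tested. Of 15 such genes, 8 were tested, 0 were higher and 1, ZNF542, was lower in TET1-CD cells by edgeR's adjusted test (12.5%), and the median log2 fold change was 0.01. At an unadjusted p under 0.05, 1 gene was higher and 1 lower, and DESeq2 called 0 genes of the list. The shares over all genes were 19.7% by the adjusted test and 33.2% without adjustment. ZNF135, ZNF667 and ZNF677 were at 0 in every library of both groups. ZNF382 had 2 and 3 counts with EV and 3 and 3 with TET1-CD. ZNF582 had 7 and 2 against 4 and 2, and ZNF154 had 10 and 7 against 9 and 2. ZNF671, a KRAB gene studied in urothelial carcinoma, had 2 and 0 counts with EV and 10 and 3 with TET1-CD. Its TET1-CD libraries were the higher ones, but the counts were too low for a test.

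Of the tested genes of this list, ZNF528, ZNF331 and ZNF569 were the best covered. ZNF528 had 343 and 312 counts with EV and 290 and 345 with TET1-CD, with a log2 fold change of -0.03 (95% confidence interval -0.25 to 0.19). ZNF331, an imprinted gene, had 202 and 162 against 207 and 227, and 0.27 (adjusted p = 0.128, edgeR). ZNF569 had 194 and 145 against 200 and 203, and also 0.27 (adjusted p = 0.171). Counts of ZNF415 were 86 and 69 with EV and 66 and 75 with TET1-CD, those of ZNF610 were 72 and 63 against 44 and 68, and their log2 fold changes were -0.12 and -0.26. The low genes ZNF132 and ZNF177 had between 13 and 26 counts in each library, and log2 fold changes of 0.05 and 0.25. None of the last 4 passed the test, with adjusted p between 0.454 and 0.946 (edgeR).

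**Figure D4:**
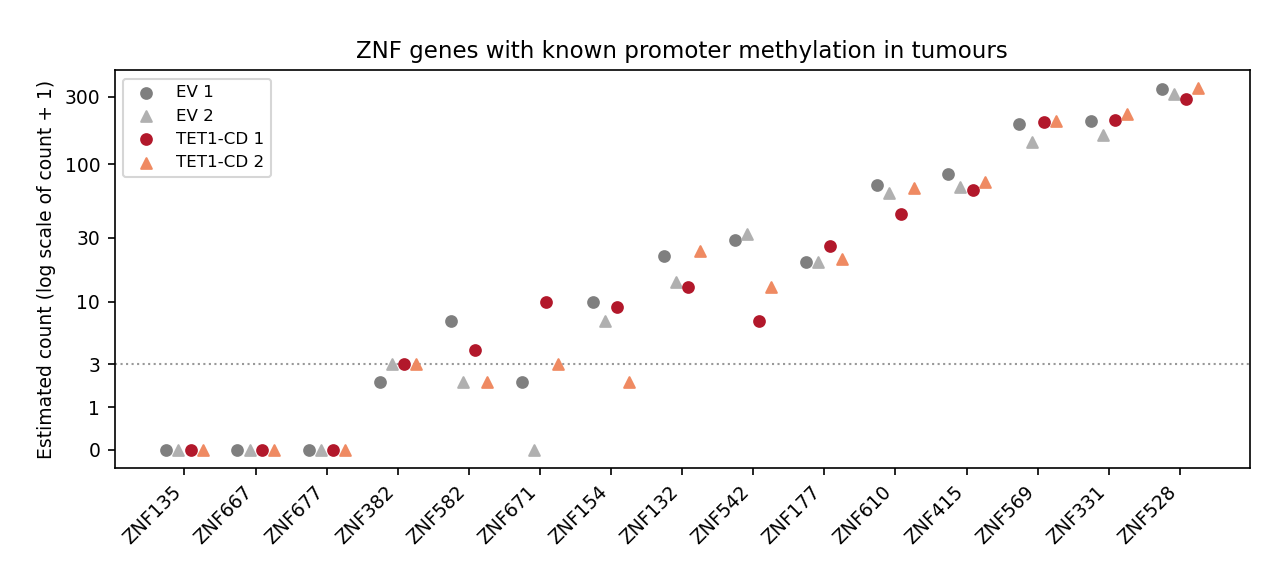
Estimated counts of the 15 ZNF genes known for promoter methylation in tumours are plotted for each library on a log scale of the count plus 1, with a dotted line at 3 counts. ZNF135, ZNF667 and ZNF677 are at 0 in all 4 libraries, and ZNF542 is the gene whose TET1-CD libraries were lower by the adjusted test.

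The partners of KRAB zinc finger proteins were expressed throughout. TRIM28, the corepressor itself, had 4718 and 3975 counts with EV and 4352 and 4921 with TET1-CD, with a log2 fold change of 0.11 (adjusted p = 0.169, edgeR). SETDB1 had 520 and 413 against 433 and 444, and -0.07 (adjusted p = 0.649). Of 27 genes of the corepressor, heterochromatin and DNA methylation machinery, 26 were tested, 3 were higher and 2 lower, or 19.2%, near the 19.7% of all genes. DNMT1, the maintenance DNA methyltransferase, rose by 0.27 on the log2 scale (SE 0.08, adjusted p = 0.0392, edgeR), from 2779 and 1983 counts with EV to 2673 and 2958 with TET1-CD. MORC2, which acts with the HUSH silencing complex, rose by 0.25 (SE 0.07, adjusted p = 0.0418). The third gene that rose was UHRF1, a cofactor of DNMT1, named after its value was seen (log2 fold change 0.23, adjusted p = 0.0474). CBX5, which encodes heterochromatin protein HP1-alpha, fell by 0.28 (SE 0.07, adjusted p = 0.0233), and EHMT2, the H3K9 methyltransferase G9a, fell by 0.29 (SE 0.09, adjusted p = 0.0408). Without EV replicate 1 or 2, the log2 fold change of DNMT1 was 0.396 or 0.141 and that of CBX5 -0.168 or -0.391. Without TET1-CD replicate 1 or 2, DNMT1 (adjusted p = 0.237 or 0.191), CBX5 (0.228 or 0.146), MORC2 (0.287 or 0.173) and EHMT2 (0.335 or 0.101) were not called. DESeq2 did not call EHMT2 (adjusted p = 0.121) or MORC2 (0.173).

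The share of called members was set beside that of other genes in ranges of mean count, since low counts limit the test. The top range has no upper limit and holds 9564 of the 14573 genes tested. The highest mean count of a member was 1447, so depth was not matched within that range. With a mean count of at least 200, 2 of 57 members were called (3.51%), beside 22.1% of all genes, 19.7% of the other genes of chromosome 19 and 15.5% of the ZNF genes of other chromosomes. Between 50 and 200 counts, 2.63% of members, 17.7% of all genes, 29 of 153 other genes of the chromosome and 6.06% of the other ZNF genes were called. Below 50 counts, the shares were 7.14%, 12.6%, 16.5% and 17.6% in the same order, the last over 17 genes. In each range, the share was lowest for the chromosome 19 ZNF genes. At 200 counts and more, the median absolute log2 fold change was 0.12 for the members and 0.12 for all genes. At lower depths it was 0.17 and 0.24 for the members and 0.24 and 0.43 for all genes. These differences between gene classes were not tested.

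**Figure D5:**
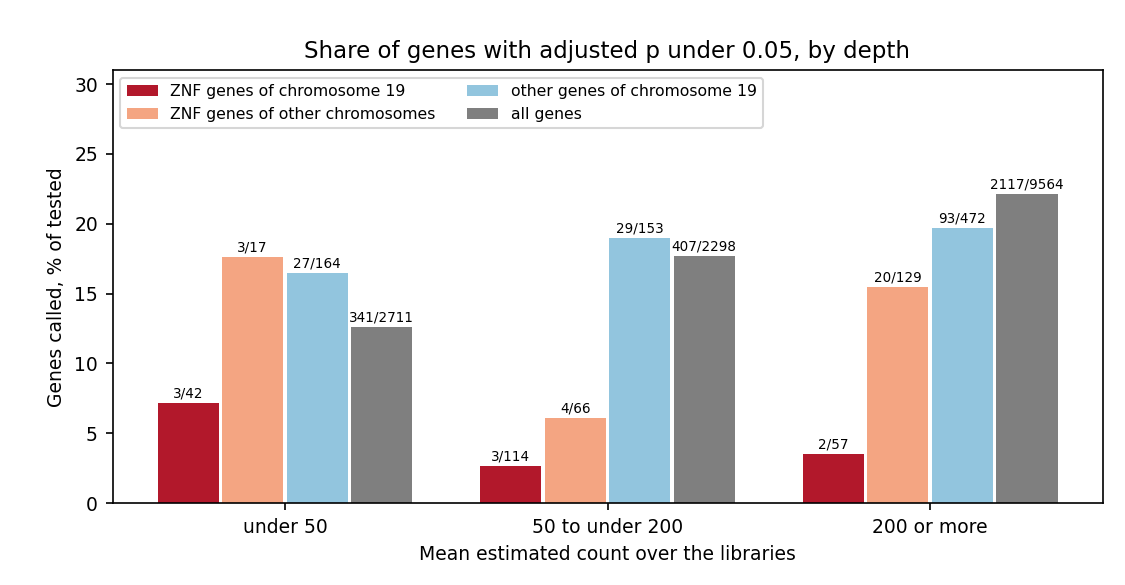
The percentage of tested genes with an adjusted p under 0.05 is plotted for 3 ranges of mean estimated count, with called and tested genes above each bar. The bars of the chromosome 19 ZNF genes (7.14%, 2.63% and 3.51%) are the lowest in each range.

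Members also resemble one another in sequence. A match to the linker that joins neighbouring C2H2 fingers, searched as a 17-base pattern on the sense strand of the longest GENCODE transcript, was found in 202 members, with a median of 5 matches and a maximum of 24. Across 210 tested members, the number of matches and the log2 fold change had a Pearson's r of 0.03 and a Spearman's rho of 0.05, as a description across genes. The median share of 31-base words found in another gene was 11.3%, and the maximum was 99.7%. Fragments from such words may be split between relatives, and the values of these genes are less certain. Of the tested members, 30 shared at least 25% of their words, and 0 of these were called by edgeR, with 5 lower and 0 higher at an unadjusted p under 0.05, beside 19.7% and 33.2% of all genes.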

How the data were processed

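Libraries were prepared from RNA of T24 cells and sequenced on an Illumina HiSeq. The submitters' processing notes list cutadapt 1.9.1, HISAT2 2.0.1, HTSeq 0.6.1, DESeq2 and hg19, but how the transcript values were made is not given in the sources used here. Each deposited file pairs an estimated count with an FPKM value for 195700 transcripts. The counts were summed per gene ID and rounded. FPKM values, also deposited by the authors, were summed per gene and used as levels.

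All 14573 genes kept by filterByExpr were tested by edgeR 4.0.16 in R 4.3.3 (TMM, glmQLFit and glmQLFTest, no replicate block, Benjamini-Hochberg), after the scripts were tested on simulated data. SE was computed from the log2 fold change and the F statistic. Of the members tested, 42 had a mean below 50 counts. DESeq2 1.42.0 and limma 3.58.1 were alternatives, and summing the IDs of a symbol was added after the data were seen. Members, lists and rules were chosen with earlier results of these data known.

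Named members are the 10 largest rises and falls among called genes whose libraries did not overlap (8 in all), the 5 of highest mean FPKM, the tumour-methylated list, and any gene at 3 counts or fewer in one group and above 10 in the other. TET1, TRIM28, SETDB1 and the 4 corepressor genes of smallest p complete the rule. Arms were divided at 26 Mb. Promoters came from the RefSeq table (GRCh38.p14) and were matched to GRCh37. Proteins were not analysed here.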

Additional observations from a re-analysis of the deposited data

How the results depend on the processing

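Calls of single members were sensitive to the method, whereas the low share of members called was below that of all genes under every alternative with an adjusted p (0.469% to 5.76% of members, 3.65% to 25.1% of all genes). DESeq2 called 0 members higher and 1 lower (ZNF160), with 0 DEGs higher and 0 lower. It gave 2 members higher and 5 lower an unadjusted p under 0.05. Without a filter on low counts, 10 members were lower and 4 were lower DEGs. With 10 counts in every library, 0 DEGs were higher and 1 was lower, and with a mean of 10 counts 0 DEGs were higher. With the most abundant transcript of each gene alone, 0 members were higher and 1 lower, with 0 DEGs higher and 1 lower, and EHMT2 reversed to 0.11. At an unadjusted p under 0.05, 10 members were higher and 20 lower, and 4 were lower DEGs. The median of 19p was -0.034 by the ratio of mean FPKM. Leaving out each library gave 0 to 4 members higher, 2 to 8 lower, 0 to 3 DEGs higher and 0 to 2 DEGs lower, and medians of -0.076 to -0.019 over all members and -0.028 to 0.003 on 19q. RLE and library size scaling each left 8 members called and limma-voom 7. The cause of these differences was not tested.

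Replicate numbers are shared by the groups, but nothing states that they mark a common culture. Deviations of same-numbered libraries correlated at 0.007 over all genes and at 0.261 over the members, and with 2 numbers neither value establishes a pairing. With a replicate block, 8 members were lower instead of 5, 11 were called in all, and the 8 genes called without it were among them.

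Most members had under 200 counts, and changes of less than about 1.5-fold were often not detectable at this depth.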

Other observations

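Zinc finger genes of chromosome 19 outside the ZNF rule, such as those named ZFP or ZNF with a letter suffix, numbered 36, of which 20 were tested. Their median log2 fold change was -0.12, 12 lay below 0, and 0 were called by edgeR at an adjusted p under 0.05, with 0 higher and 2 lower at an unadjusted p under 0.05, beside 19.7% and 33.2% of all genes. Within cluster 19q-E, a maximum gap of 0.5 Mb separated a proximal run (55987699 to 57183151, 10 tested, median -0.19) from a distal run (57702868 to 58992597, 36 tested, median 0.03).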
